A study of Mus musculus with 8 samples.

Results

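The miR-193 and miR-365 family comprises miRNAs made from 4 hairpins that lie in 2 genomic clusters of the mouse. The 5 members described here are mmu-miR-193a-3p, mmu-miR-193a-5p, mmu-miR-193b-3p, mmu-miR-365-3p and mmu-miR-365-2-5p (below without the species prefix), and they were chosen by name from the 895 miRNA names of the table, with earlier results of these libraries known. Their names, and no threshold on a level or on a genotype difference, set the membership. Together they account for 81 of the 47204 distinct read sequences, and the table also names the remaining arms of the same hairpins, miR-193b-5p and miR-365-1-5p. RISC-bound small RNAs were sequenced from cortex and hippocampus combined of 4 5XFADtg Rubicon+/- mice (het) and 4 5XFADtg Rubicon-/- mice (ko). All 8 mice carried the 5XFAD transgene, which is expressed in neurons from the Thy1 promoter and drives amyloid deposition, so none of the libraries is from a brain free of the transgene. The females were 6 or 8 months old in the methods and 6 months old in the results text, and the labels give no age. They were on a mixed C57BL/6J/SJL background, and differed by design in whether 1 or no intact copy of Rubicon, a brake on autophagy, was left in every cell. Each library is taken as 1 mouse, since the titles number 4 replicates per genotype and the methods of the study count 4 mice of each. The results text of the study counts fewer het mice. The RISC was captured by a GW182 peptide, which binds Argonaute proteins.

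A miRNA hairpin is cut by Drosha and Dicer into a duplex of a 5p and a 3p arm, of which usually 1 arm is kept by Argonaute as the guide. The seed of the guide, near its 5' end, largely sets which mRNAs are silenced, so paralogs that share a seed are expected to share many targets. miR-193a has been studied as a growth suppressor that represses the receptor KIT in leukaemia, and the miR-193b and miR-365 cluster is best known from brown fat differentiation.

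The mature sequences are shown because the family is defined by 2 seeds among its 3p guides and because the paralogs differ at few positions. They are from RefSeq (GRCm38.p6), written 5' to 3', with the seed (positions 2 to 8) in capitals.
miR-193a-3p: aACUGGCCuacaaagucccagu
miR-193b-3p: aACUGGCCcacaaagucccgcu
miR-365-3p: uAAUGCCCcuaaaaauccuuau
miR-193a-5p: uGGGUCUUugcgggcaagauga
miR-193b-5p: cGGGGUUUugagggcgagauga
miR-365-2-5p: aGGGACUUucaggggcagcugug
miR-365-1-5p: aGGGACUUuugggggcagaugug
miR-193a-3p and miR-193b-3p were identical at 19 of 22 positions and shared the seed. Counted from 1 at the 5' end of miR-193a-3p, the differences to miR-193b-3p are U9C, A20G and G21C. The first lies just outside the seed and the other 2 near the 3' end, so every full-length read can be assigned to 1 paralog. The 5p arms of the miR-193 hairpins were identical at 17 of 22 positions and their seeds differ by U5G and C6U, whereas the 5p arms of the miR-365 hairpins shared a seed and were identical at 20 of 23 positions.

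The 4 hairpins form 2 pairs. Mir193a (chr11:79711969-79712034, plus strand, GRCm38.p6) lies 14365 bp upstream of Mir365-2 (chr11:79726400-79726511, plus strand), and the annotation places no other gene over either hairpin. Mir193b (chr16:13449523-13449601, plus strand) lies 4238 bp upstream of Mir365-1 (chr16:13453840-13453926, plus strand), and both lie within an intron of Gm15738, an antisense transcript on the minus strand. Because both miR-365 hairpins yield the same miR-365-3p, its reads cannot be told apart by locus, and only the 5p arms carry that information.

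Library depth ranged from 509839 to 19878054 reads, and the 2 libraries over 5000000 reads were both ko (replicates 1 and 2), so such depth and genotype cannot be told apart in them. A level of 3 reads was 5.79 CPM (reads of a feature scaled to a common library total) in the shallowest and 0.151 CPM in the deepest library. The neuronal markers miR-124-3p, miR-9-5p and miR-128-3p summed to 145000 to 189000 CPM in het and 146000 to 247000 CPM in ko libraries, and were thus abundant in every library of the labelled tissue. In a bulk brain sample, fewer cells of a type and less RNA per cell cannot be told apart.

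miR-365-3p was the most abundant guide of the family. It was present at 254.8, 375.5, 513.3 and 279.3 CPM in het replicates 1 to 4 and at 375.8, 251.8, 240.2 and 428.2 CPM in ko replicates 1 to 4. The highest library was a het and the lowest a ko, but the ranges overlapped widely. By mean CPM over the 8 libraries it ranked 184 of 895 miRNA names.

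miR-193b-3p, its clustered partner on chromosome 16, ranked 247. Its level was 144.8, 136.9, 151.8 and 99.1 CPM in the het and 178.0, 147.1, 238.9 and 108.8 CPM in the ko libraries, again with overlap. miR-193a-3p, the paralog from chromosome 11, ranked 292. It was found at 140.9, 217.3, 70.7 and 92.7 CPM in the het libraries and at 33.7, 55.8, 40.4 and 43.1 CPM in the ko libraries. Here every ko library was below every het library, and the highest ko value (Wilson 95% interval 52.6 to 59.2 CPM) was still below the lowest het value (61.1 to 81.7 CPM, counting error only).

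**Figure D1:**
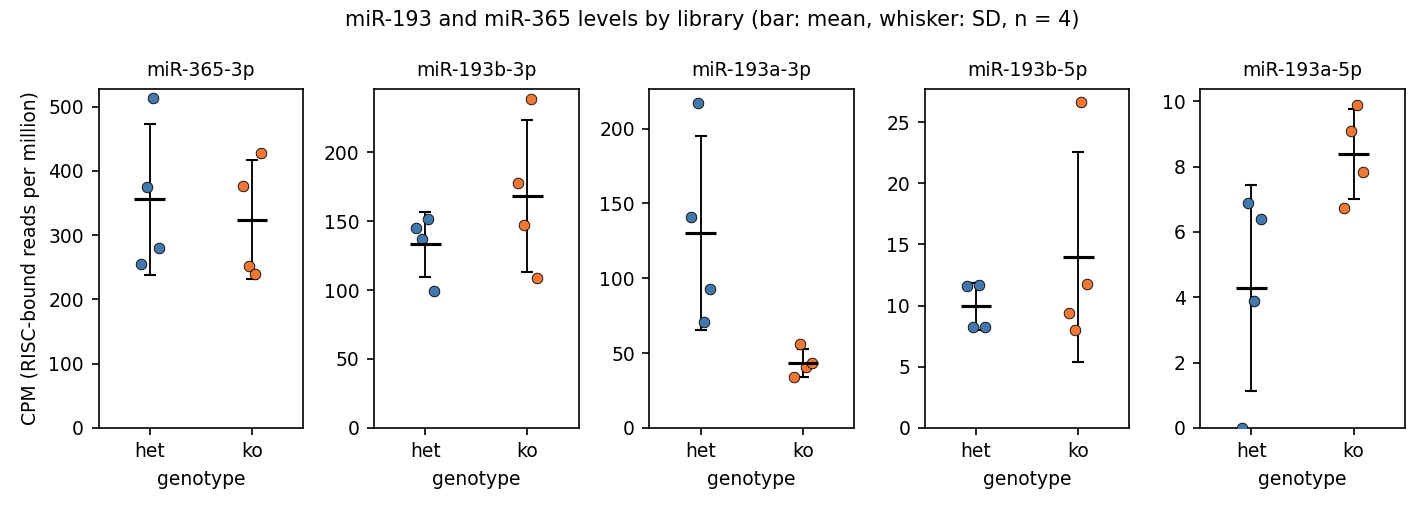
CPM of miR-365-3p, miR-193b-3p, miR-193a-3p, miR-193b-5p and miR-193a-5p by genotype (each point 1 library, bar the mean, whisker the SD, n = 4, axes from 0 and of different height). The ko libraries of miR-193a-3p sit between 33.7 and 55.8 CPM, all below the het libraries, while the points of the other miRNAs overlap between genotypes.

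The order of the levels was stable for the top guide. miR-365-3p exceeded both miR-193b-3p and miR-193a-3p in 8 of 8 libraries, and miR-193b-3p exceeded miR-193a-3p in 7 of 8, the exception being het replicate 2. Over all libraries the means were 339.9 CPM ± 99.3 for miR-365-3p, 150.7 CPM ± 43.4 for miR-193b-3p and 86.8 CPM ± 63.4 for miR-193a-3p (SD, n = 8). In het brains the levels of miR-193b-3p and miR-193a-3p did not differ beyond their spread (133.1 CPM ± 23.5 and 130.4 CPM ± 65.0, SD, n = 4).

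The 5p arms were scarce. miR-193a-5p had 302 reads in all against 2332 for miR-193a-3p, and miR-193b-5p had 377 against 5924 for miR-193b-3p. Such totals weigh the deep ko libraries most. By mean CPM over all libraries miR-193a-5p was at 6.34 and miR-193a-3p at 86.8. For miR-365, 11709 reads of the 3p arm stood against 16 of both 5p arms together, 8 from each hairpin. In every one of the 3 hairpin families the 3p arm was thus the main guide in the RISC. miR-365-2-5p, the only member that marks the chromosome 11 copy of miR-365, had all of its 8 reads in ko replicate 2 (0.402 CPM) and none elsewhere, and it ranked 884. The counts of 0 allow levels of up to 0.382 to 5.79 CPM, so its absence from the shallower libraries was not detectable as a difference. Reads of miR-365-1-5p from chromosome 16 occurred in het replicate 2 (0.688 CPM), ko replicate 2 (0.201 CPM) and ko replicate 3 (1.29 CPM), and at this depth no share of miR-365-3p could be given to either locus.

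The question asked of each member was whether loss of the second Rubicon copy went with another level in the RISC. Of the 5 members, 3 had the mean of at least 10 CPM that the test required, and none of these passed the threshold (limma, Benjamini-Hochberg adjusted p under 0.05 over 463 miRNAs), at which 6 miRNAs or 1.3% of those tested were called. miR-193a-3p came closest. Het brains averaged 130.4 CPM ± 65.0 and ko brains 43.3 CPM ± 9.24 (SD, n = 4 each). The log2 fold change was -1.46 (standard error, SE, 0.38, 95% interval -2.28 to -0.65), or 2.76-fold lower in ko on the log2(CPM + 1) scale. The limma p was 0.00195 before and 0.129 after adjustment, the 7th smallest of the 463, and so it was the first miRNA to miss the threshold. At an unadjusted p under 0.05, 6.91% of the miRNAs tested were lower in ko, and 3.24% had every ko library below every het library.

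The call for miR-193a-3p depended on the test and on 1 library. DESeq2 on the recovered reads gave a log2 fold change of -1.43 with an adjusted p of 0.0117, in a fit that called 1.94% of miRNAs, whereas edgeR gave -1.45 with an adjusted p of 0.151. Without het replicate 3, the lowest het library, limma gave -1.71 with an adjusted p of 0.0458 and called 1.73% of miRNAs. Without the 2 libraries over 5000000 reads it gave -1.49 with an adjusted p of 0.276. Over 19 alternatives the log2 fold change lay between -1.71 and -1.18 and the adjusted p between 0.0117 and 0.387.

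For miR-193b-3p and miR-365-3p the genotypes overlapped. Het brains averaged 133.1 CPM ± 23.5 and ko brains 168.2 CPM ± 55.0 (SD, n = 4 each), and the log2 fold change came to 0.30 (SE 0.31, 95% interval -0.38 to 0.97, adjusted p = 0.975 by limma), which was 0.11 without ko replicate 3 and 0.48 without ko replicate 4. miR-365-3p averaged 355.7 CPM ± 117.2 and 324.0 CPM ± 92.7 in het and ko brains (SD, n = 4 each), and its log2 fold change came to -0.12 (SE 0.30, 95% interval -0.78 to 0.53, adjusted p = 0.975 by limma), and its sign was positive when each library was centred on its median (0.10) and with edgeR or DESeq2. The intervals leave room for a log2 difference of up to 0.97 in miR-193b-3p, so equal levels are not shown. The median log2 fold change of all 463 miRNAs was -0.09, with 188 higher and 275 lower in ko, and it was 0.13 with 293 higher and 170 lower after centring, where miR-193a-3p was at -1.24 and miR-193b-3p at 0.52.

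**Figure D2:**
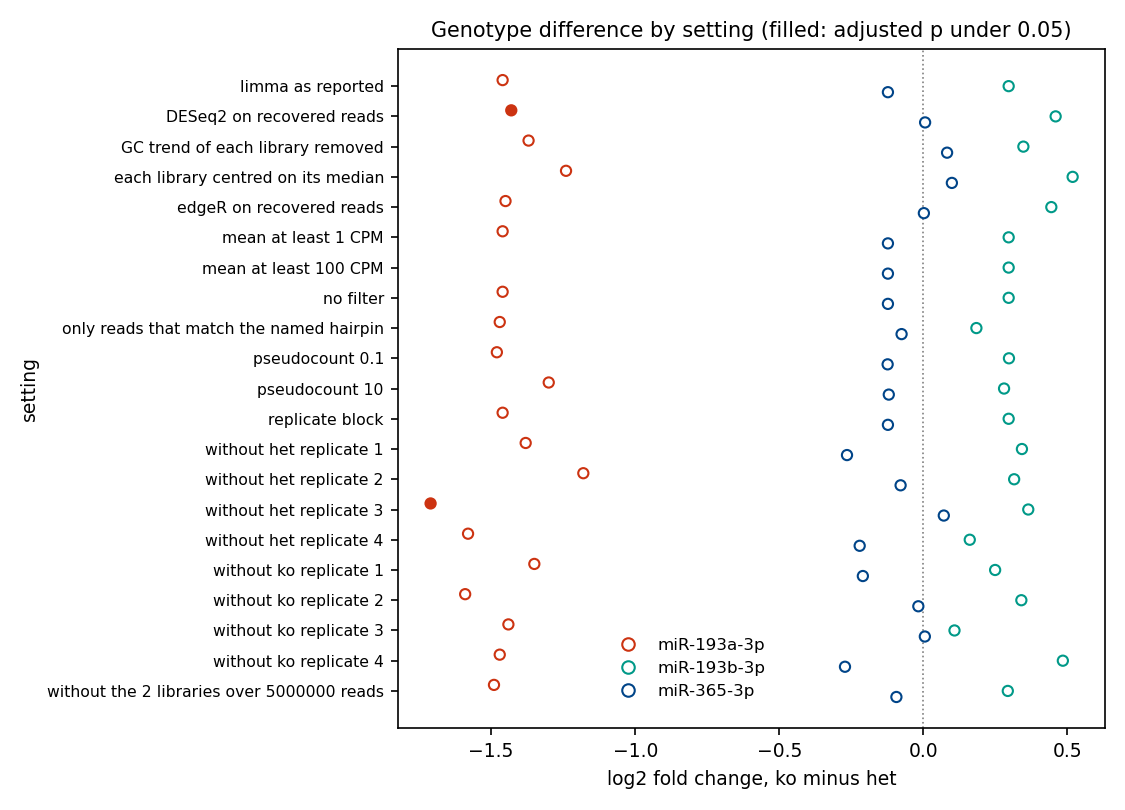
Log2 fold change (ko minus het) of miR-193a-3p, miR-193b-3p and miR-365-3p under each setting tried (filled points have an adjusted p under 0.05, and the dotted line marks no difference). miR-193a-3p stays between -1.71 and -1.18 with 2 filled points, miR-193b-3p stays above 0 and miR-365-3p lies on both sides of 0.

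Neither miR-193 5p arm differed between genotypes past the threshold. miR-193a-5p was at 0, 6.88, 3.88 and 6.38 CPM in het replicates 1 to 4, from 0, 10, 10 and 17 reads, and at 6.74, 9.09, 9.88 and 7.84 CPM in ko replicates 1 to 4, from 53, 181, 23 and 8 reads. The ranges touched, since the lowest ko library was below the highest het library. With the filter lowered to a mean of 1 CPM, limma gave a log2 fold change of 1.18 (SE 0.66, adjusted p = 0.748). It was 0.50 (limma adjusted p = 0.991) without het replicate 1, where a level of 5.79 CPM corresponds to 3 reads. miR-193b-5p averaged 9.94 CPM ± 1.94 in het brains against 13.9 CPM ± 8.60 in ko (SD, n = 4 each), with a log2 fold change of 0.32 (adjusted p = 0.975 by limma), and its highest library was ko replicate 3 at 26.6 CPM. The log2 fold change was -0.03 without that library and 0.80 without the 2 deepest libraries.

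Ratios within a library compare paralogs, clustered partners and arms directly. They were taken of CPM + 1, so for abundant guides they depend little on how the library was scaled, while for scarce arms they depend on the added 1. miR-193a made up 49.3%, 61.4%, 31.8% and 48.3% of the reads of both miR-193 3p guides in het replicates 1 to 4. It made up 15.9%, 27.5%, 14.5% and 28.4% in ko replicates 1 to 4. All ko shares were below all het shares, and the closest pair was 28.4% in ko replicate 4 (Wilson 95% interval 21.9 to 35.9%, 155 reads) and 31.8% in het replicate 3 (28.1 to 35.7%, 573 reads), whose intervals overlap. The log2 ratio of miR-193a-3p to miR-193b-3p was -0.14 ± 0.72 in het and -1.90 ± 0.64 in ko brains (SD, n = 4 each), a difference of -1.76 with an exact two-sided permutation p of 0.0286, the smallest that 4 against 4 libraries can give. Adjusted over the 5 ratios compared, the p was 0.0714, so the difference in paralog balance did not pass the threshold. It was -1.78 without the 2 deepest libraries.

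The arm ratio of the miR-193a hairpin was lower in every ko library than in every het library. Like the paralog ratio it contains the level of miR-193a-3p, so these are not separate observations from that level. The 3p arm exceeded the 5p arm 31.6-fold, 18.2-fold and 14.5-fold in het replicates 2 to 4, while het replicate 1 had no read of the 5p arm. In ko replicates 1 to 4 the excess was 5.00-fold, 6.14-fold, 4.09-fold and 5.50-fold. The log2 ratio was 4.87 ± 1.60 in het and 2.23 ± 0.24 in ko brains (SD, n = 4 each), and the groups did not overlap (difference -2.65, exact permutation p = 0.0286, adjusted p = 0.0714). The size of this difference rested on the added pseudocount, being -3.51 with 0.1 and -1.69 with 10 in place of 1, because the 5p arm had few reads in het libraries. It also rested on het replicate 1, which had no read of the 5p arm, and was -1.89 without that library.

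The ratios of the clustered partners overlapped between the genotypes. miR-365-3p exceeded miR-193a-3p 1.73-fold to 7.26-fold in het and 4.51-fold to 11.1-fold in ko libraries (log2 ratio 1.52 ± 0.96 and 2.85 ± 0.61, SD, n = 4 each, difference 1.34, exact permutation p = 0.0857, adjusted p = 0.143). Against miR-193b-3p the excess was 1.76-fold to 3.38-fold in het and 1.01-fold to 3.94-fold in ko libraries (difference of log2 ratios -0.42, exact permutation p = 0.4, adjusted p = 0.5), which was -0.10 without ko replicate 3 and -0.76 without ko replicate 4. In the 7 libraries without a read of miR-365-2-5p, miR-365-3p was at least 44-fold to at least 985-fold higher, taking 3 reads per library as the floor, and in ko replicate 2 it had 627 times as many reads (5015 against 8). The difference of log2 ratios for this pair was -0.25 (exact permutation p = 0.543) and rests on the libraries at 0.

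**Figure D3:**
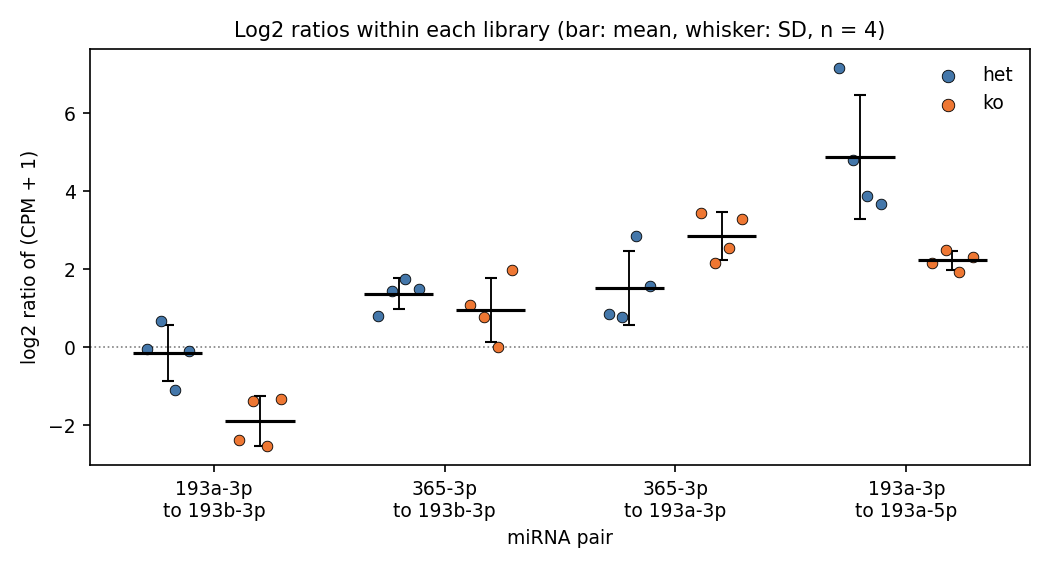
Log2 ratio of (CPM + 1) between family members within each library, by genotype (each point 1 library, bar the mean, whisker the SD, n = 4). The het and ko points do not overlap for miR-193a-3p to miR-193b-3p and for miR-193a-3p to miR-193a-5p, and they overlap for both ratios with miR-365-3p on top.

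Across the 8 libraries no pair of members had a correlation that passed the threshold. Both miR-193 guides have miR-365-3p as a clustered partner. The pair of chromosome 16, miR-193b-3p and miR-365-3p, had Pearson's r of -0.25 (exact permutation p = 0.562) and Spearman's rho of -0.21 (exact permutation p = 0.619). Its r was -0.14 without the 2 libraries farthest from the median. The pair of chromosome 11, miR-193a-3p and miR-365-3p, had r of -0.05 (exact permutation p = 0.909), and -0.345 once the genotype means were removed. For the paralogs miR-193a-3p and miR-193b-3p r was -0.37 (exact permutation p = 0.375) and rho -0.60 (exact permutation p = 0.132), r was -0.60 without the 2 farthest libraries and between -0.59 and -0.18 leaving out any 1 library, and r was -0.06 once the genotype means were removed. Of 10 pairs none had an adjusted exact p below 0.884. Pairs with miR-365-2-5p rest on 1 library.

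The miRNAs whose levels were most like each guide differed between the 3 guides. For miR-193a-3p these were miR-34c-5p, miR-136-5p and miR-138-5p, with r of 0.94, 0.93 and 0.90 over 8 libraries among 460 miRNAs compared. For miR-193b-3p they were miR-219a-2-3p (r = 0.91), miR-434-3p (0.83) and miR-382-5p (0.75). For miR-365-3p they were miR-27b-5p (0.84), the jointly named miR-297a-3p, miR-297b-3p and miR-297c-3p (0.83), and miR-181a-5p (0.79). These r are a description over the same 8 libraries, which share depth and genotype, and all 3 lists were the highest of many.

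Of the marker lists for other cell types, the epithelial list held members of the miR-200 family that were lower in ko. Of its 5 markers, all detected, 4 were tested and 3 were called lower in ko by limma at the threshold named above, namely miR-200a-3p, miR-200b-3p and miR-429-3p. The other markers overlapped between genotypes, with miR-203-3p at 65.2 to 113.0 CPM in het and 59.3 to 80.3 CPM in ko libraries and miR-205-5p at 2.75 to 18.8 and 3.05 to 11.8 CPM. The sum of the list, mostly from the miR-200 family, ranged from 1910 to 6490 CPM in het and from 210 to 746 CPM in ko libraries. Their part in the difference of miR-193a-3p was not tested. The markers of oligodendrocytes, microglia and blood cells, red cells, vessels, choroid plexus, muscle and liver had no called member, and the summed red cell markers were 1720 to 3130 CPM in het and 701 to 2220 CPM in ko libraries.

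Because miR-193a-3p and miR-193b-3p share a seed, their reads were also counted by the 6mer seed (positions 2 to 7), to which the study assigns a viability score, the mean percent viability that an siRNA with that seed left in 3 mouse cell lines, with low values marking toxic seeds. The seed ACUGGC had a viability of 18.1, and 185 of 3427 seeds in the table (5.4%) scored lower. The seed AAUGCC of miR-365-3p had a viability of 8.0, with only 27 seeds (0.788%) below it. Of the scarce 5p arms among the members, miR-193a-5p carried GGGUCU (16) and miR-365-2-5p GGGACU (27.8).

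Members supplied most reads of their seeds. Of all CPM with ACUGGC, 94.4% came from miR-193a-3p and miR-193b-3p, and 96.2% of AAUGCC came from miR-365-3p, whereas miR-365-2-5p supplied 0.85% of GGGACU. The ACUGGC pool held 260.9 CPM ± 65.9 in het brains against 214.8 CPM ± 67.2 in ko (SD, n = 4 each, log2 fold change -0.30, SE 0.29, limma adjusted p = 0.982), a difference of -0.49 without ko replicate 3 and of -0.14 without ko replicate 4. The AAUGCC pool was 364.7 CPM ± 113.9 and 330.5 CPM ± 86.7 (log2 fold change -0.13, SE 0.29, limma adjusted p = 0.996). Of 990 seeds tested, 0.303% were called, and none of these was a seed of the family. The genotypes overlapped for both pools, and miR-193a-3p supplied 32.0 to 63.6% of the ACUGGC pool in het and 13.1 to 28.9% in ko libraries. Reads with a seed viability under 20 made up 20500 CPM ± 3610 in het and 17400 CPM ± 6000 in ko brains, and the members contributed 3.05% ± 0.92 and 3.4% ± 1.5 of them (SD, n = 4 each).

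**Figure D4:**
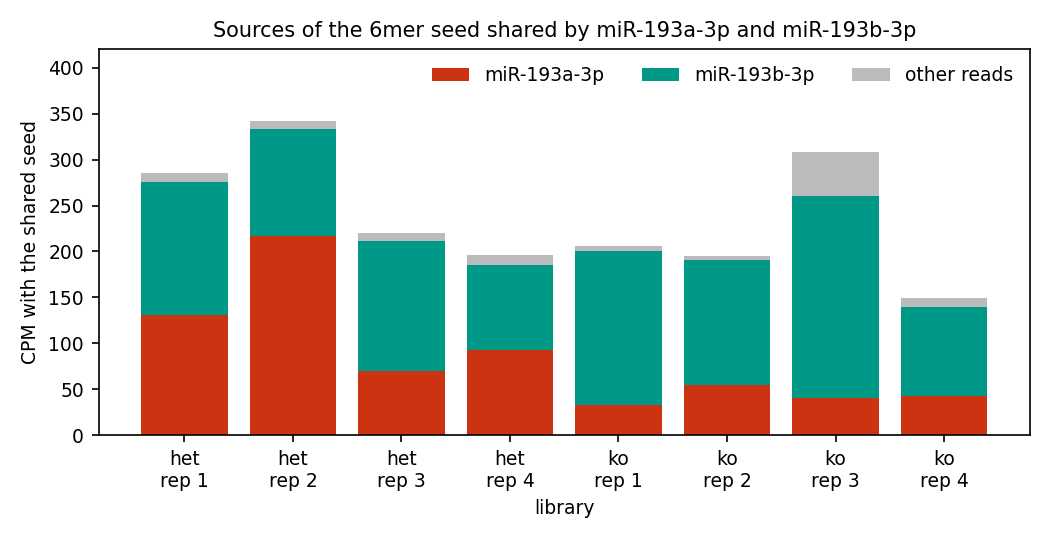
CPM of reads with the seed shared by miR-193a-3p and miR-193b-3p in each library, stacked by source (red miR-193a-3p, green miR-193b-3p, grey other reads, axis from 0). miR-193a-3p supplies 32.0 to 63.6% of the bars in het and 13.1 to 28.9% in ko libraries, while the total heights of the genotypes overlap.

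The read forms of the guides are shown because the 3' ends differ between paralogs. The 3 most abundant reads of each are written as DNA in the table, again with the seed in capitals.
miR-193a-3p, 22 nt: aACTGGCCtacaaagtcccagt
miR-193a-3p, 21 nt: aACTGGCCtacaaagtcccag
miR-193a-3p, 20 nt: aACTGGCCtacaaagtccca
miR-193b-3p, 22 nt: aACTGGCCcacaaagtcccgct
miR-193b-3p, 21 nt: aACTGGCCcacaaagtcccgc
miR-193b-3p, 23 nt: aACTGGCCcacaaagtcccgctt
miR-365-3p, 22 nt: tAATGCCCctaaaaatccttat
miR-365-3p, 21 nt: tAATGCCCctaaaaatcctta
miR-365-3p, 20 nt: tAATGCCCctaaaaatcctt
The first read of each is the mature form. It made up 55.2% ± 12.2 of miR-193a-3p, 53.3% ± 6.32 of miR-193b-3p and 59.2% ± 8.52 of miR-365-3p (SD, n = 8). Shortened reads that still matched the hairpin were the next most common form of miR-193a-3p (23.1% ± 5.15) and of miR-365-3p (26.8% ± 10.6). miR-193b-3p had reads extended along its hairpin (14.5% ± 3.14) about as often as shortened ones (14.6% ± 4.68), whereas miR-193a-3p had none that were extended this way.

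Reads with the main 5' end whose 3' part did not match the hairpin made up 20.4% ± 11.2 of miR-193a-3p, 9.83% ± 3.99 of miR-193b-3p and 8.76% ± 3.84 of miR-365-3p (SD, n = 8). Added bases and changed bases were not told apart in them. The last base of these reads was most often A, at 72.7%, 55.5% and 41.7% of such CPM in the same order. A shifted 5' end, which changes the seed, was found in 1.29% ± 2.34 of miR-193a-3p, 7.75% ± 4.38 of miR-193b-3p and 1.40% ± 1.03 of miR-365-3p. The shifted reads of miR-193b-3p mostly began 1 base downstream and then had the seed CUGGCC, with a viability of 56.3 and a mean level of 10.5 CPM.

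**Figure D5:**
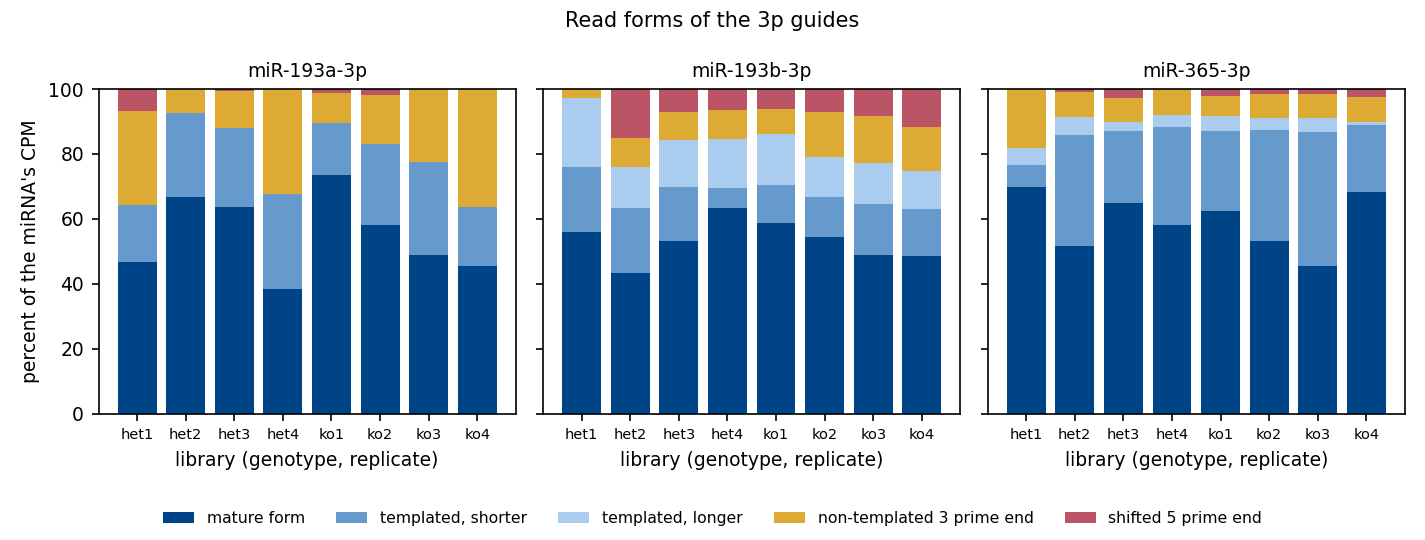
Share of each 3p guide's CPM (percent) by read form in the 8 libraries (stacked colours give the mature form, shorter and longer reads that match the hairpin, reads with a 3' end that does not match it, and reads with a shifted 5' end). The mature form is the largest share in every bar, only miR-193b-3p shows a broad band of longer reads, and the genotypes overlap in every form.

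Of 12 measures of read ends and lengths (the main 5' end, the mean length, the most abundant read and reads of 23 nt or more of each 3p guide), none passed the threshold between genotypes, and the lowest exact permutation p was 0.171 and the lowest adjusted p 0.914. Reads of miR-193a-3p averaged 21.8 nt ± 0.17 in length in het brains against 21.7 nt ± 0.06 in ko, those of miR-193b-3p 22.1 nt ± 0.11 against 22.1 nt ± 0.08, and those of miR-365-3p 21.7 nt ± 0.21 against 21.6 nt ± 0.16 (SD, n = 4 each). Of the 81 reads of the family, 9 reached a mean of 10 CPM and none was called (limma over 3299 reads, of which 0.485% were called). Both tested reads of miR-193a-3p had every ko library below every het library, as did 2.21% of all reads tested. The 22 nt read was at 65.6, 145.1, 45.0 and 35.7 CPM in het and 24.8, 32.4, 19.8 and 19.6 CPM in ko libraries (log2 fold change -1.37, SE 0.44, limma adjusted p = 0.571). The 21 nt read averaged 21.4 CPM ± 12.2 in het brains against 3.86 CPM ± 2.24 in ko (SD, n = 4 each, log2 fold change -2.15, SE 0.72, limma adjusted p = 0.629).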

How the data were processed

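RISC-bound small RNAs of 8 mouse brains (4 het, 4 ko) were analysed, with groups and replicate numbers from the sample titles. The deposited values are CPM that the authors made with SPOROS (Trim Galore trimming, rare and artificial reads removed, BLAST to small RNA lists, scaling per library), and the authors' viability score per seed comes from an earlier screen. The genome build is not given in the sources used here. Because rare reads were removed on totals over all libraries, scarce arms seen only in shallow libraries are more easily lost.

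CPM was summed by miRNA name, read or seed. For features that averaged 10 CPM or more, limma 3.58.1 (trend, robust) in R 4.3.3 was fitted to log2(CPM + 1) without covariates, with Benjamini-Hochberg adjustment over the whole table. Ratios, read ends and correlations were compared by exact two-sided permutation tests (Python 3.11.15, scipy 1.17.1). All values (100.0%) came out as whole reads (within 0.0006 CPM or 2% of a read), and on these edgeR 4.0.16 called 4 and DESeq2 1.42.0 called 9 miRNAs against 6 with limma. The scripts were tested on simulated data. Intervals are Wilson 95% intervals for counting error only, since reads carried no molecular identifiers. Of 895 names, 709 had a hairpin in the RefSeq table, and hairpin positions are those of RefSeq.

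The members, the marker lists and the tests were chosen with earlier results of these data known. The names given are the members, the other arms of their hairpins, their 3 most abundant reads and the 3 miRNAs with the highest Pearson's r to each 3p guide. Alternatives were other pseudocounts, filters and scalings, a GC correction, the replicate number as a block, only reads that match the hairpin, and leaving out libraries. Leaving out libraries for miR-193a-5p was added after seeing the data.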

Additional observations from a re-analysis of the deposited data

Results flagged for a closer look

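In 43 sets of 4 libraries of 1 genotype, 1 library was tested for standing apart from the other 3 (Dixon's test, 95% level). This held in 3 sets, and chance gives about 2.15. The share of miR-193a-3p reads with the main 5' end was 93.15% in het replicate 1, with the next library at 99.45%, in a library with 73 reads of this miRNA. miR-365-1-5p was at 1.289 CPM in ko replicate 3, from 3 reads, with the next ko library at 0.201 CPM. Of miR-193b-3p reads, 32.43% were of 23 nt or more in ko replicate 4, with the next library at 24.21%.

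Reads that no miRNA name was given to include a form of miR-193b-3p with the substitution A10U (counted from 1 at the 5' end of miR-193b-3p). They stood outside the comparisons by miRNA name and are shown as the table gives them, with the substituted base in capitals.
A10U form, 22 nt: aactggcccTcaaagtcccgct
A10U form, 21 nt: aactggcccTcaaagtcccgc
A10U form, 23 nt: aactggcccTcaaagtcccgctt
Together they reached 38.24 CPM in ko replicate 3, where 89 of the 645 reads of both forms carried it (13.8%, Wilson 95% interval 11.4 to 16.7%). Het replicate 1 followed with 9.653 CPM (5 of 80 reads, 6.25%, interval 2.70 to 13.8%), and the other 6 libraries had shares from 0 to 1.12%. The seed of these reads is that of miR-193b-3p, so they were counted in the comparison of the ACUGGC pool, where ko replicate 3 held 308.5 CPM. Their origin was not tested.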

How the results depend on the processing

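miR-193a-3p kept its direction under all 19 alternatives and its side of the threshold under 17. The number of members past the threshold was 0, and it was 1 with DESeq2 and 1 without het replicate 3 (range 0 to 1 leaving out 1 library). A mean of at least 100 CPM left miR-193a-3p untested. miR-365-3p changed sign with DESeq2 (0.00603), edgeR (0.00175), removal of the GC trend (0.0823) and centring (0.0989), and lay between -0.272 and 0.0709 leaving out 1 library. Leaving out 1 library gave 0.108 to 0.484 for miR-193b-3p, -0.0268 to 0.514 for miR-193b-5p and -0.263 to 0.0526 for the miR-365-3p seed. The difference in paralog ratio was -2.08 to -1.49 over all alternatives.

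Of the 12 differences in read ends, none of which passed its test, 8 changed sign under some alternative and 4 did not. For the most abundant read (percentage points) they were -3.04 to 6.94 for miR-193a-3p leaving out 1 library and -6.69 without the 2 deepest, -4.81 to 1.87 for miR-193b-3p and 3.21 with reads matching the hairpin, and -7.31 to 0.211 for miR-365-3p. For the main 5' end they were -0.55 to 1.73 (miR-193a-3p), and -3.80 to 1.23 and 0.337 with hairpin reads (miR-193b-3p). The length of miR-193b-3p differed by -0.0269 to 0.0494 nt and -0.0414 with hairpin reads. The share of 23 nt or more differed by -0.687 for miR-193b-3p with hairpin reads and by -0.949 to 0.191 for miR-365-3p. Pearson's r of miR-193b-3p and miR-365-3p was 0.232 after centring and -0.469 to 0.126 leaving out 1 library, and that of miR-193a-3p and miR-365-3p -0.256 to 0.124. The cause was not tested.

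No pairing of the libraries by replicate number was evident, since 2 of 4 same-numbered pairs had a correlation over 0.1 (-0.182 to 0.291) and 3 of 8 libraries correlated best with their own number. These correlations cannot show that a pairing is absent. With the replicate block, 10 rather than 6 miRNAs were called, miR-193a-3p was at -1.46 (limma adjusted p = 0.0538), miR-193b-3p at 0.30 and miR-365-3p at -0.12, and the paralog ratio differed by -1.76 (exact adjusted p = 0.312, smallest unadjusted p 0.125). Scarce 5p arms are limited by depth and the 3p guides by the spread between 4 mice.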
